A study of Mus musculus with 2 samples.

Results

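The messenger RNAs of 10 antioxidant enzymes were followed in the left cerebral cortex of adult mice: the superoxide dismutases Sod1 and Sod2, the glutathione peroxidases Gpx1 and Gpx4, and the peroxiredoxins Prdx1 to Prdx6. They were chosen by name, and all 10 were found among the 55450 annotated genes with a symbol. Poly(A)+ RNA, which is mostly messenger RNA, came from the cortex of mice aged 6 months, described as strain B6NCrl and as C57BL/6, with 20 ng of starting material and Nextera tagmentation, where a transposase both breaks DNA copies and adds their adapters. There was 1 group, untreated as far as the labels tell, with 2 libraries that the labels number as biological replicates 1 and 2. Both carry the same donor entry and separate sample records, and 1 field calls the tissue male while another gives the sex as not collected. Whether 2 animals were sampled therefore rests on the replicate numbers alone, and every spread below is a spread between these 2 libraries. No comparison of conditions was possible, and no p-value was computed.

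Superoxide, a by-product of respiration, is turned into hydrogen peroxide by superoxide dismutases, with the copper-zinc enzyme encoded by Sod1 acting mainly in the cytosol and the manganese enzyme encoded by Sod2 in mitochondria. Peroxiredoxins and glutathione peroxidases then reduce hydrogen peroxide and lipid peroxides, with electrons that come from thioredoxin or glutathione and in the end from NADPH. Brain tissue uses much oxygen and is rich in unsaturated membrane lipids, and Gpx4, which reduces lipid peroxides within membranes, is known for keeping neurons from an iron-dependent form of cell death called ferroptosis.

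In each peroxidase of the set 1 residue meets the peroxide first, and the codon for that residue bears on the transcript results, so the coding sequence around it is shown. The 2-Cys peroxiredoxins need a second, resolving cysteine as well, which is not shown. The capitals mark that codon and the lower case letters mark the 12 bases on either side, 5′ to 3′ on the mRNA strand, from GENCODE M21 transcripts on mm10. In both glutathione peroxidases the codon is TGA, read as selenocysteine here and as a stop in most other mRNAs. In the peroxiredoxins it encodes the peroxidatic cysteine, which peroxide oxidises first.
Gpx1: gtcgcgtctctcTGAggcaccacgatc
Gpx4: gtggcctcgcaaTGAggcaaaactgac
Prdx1: tttacttttgtgTGTcccacggagatc
Prdx2: ttcacttttgttTGCcccacggagatc
Prdx3: ttcacatttgtgTGTcctacagaaatt
Prdx4: ttcacctttgtgTGTccaactgaaatc
Prdx5: tttacacctggcTGTtctaagacccac
Prdx6: tttaccccagtgTGCaccacagaactt

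The 2 selenocysteine windows had 17 of 27 bases in common. Against the Prdx1 window, 24 bases were the same in Prdx2, 22 in Prdx4, 21 in Prdx3, 17 in Prdx6 and 14 in Prdx5. Over aligned bases of the coding sequences, gaps left out, identity with Prdx1 was 69.9% for Prdx2, 69.7% for Prdx3 and 69.3% for Prdx4. It was 61.6% for Prdx6 and 58.4% for Prdx5, below the 64.1% that the same alignment gave for Sod1 against Sod2. The peroxiredoxins that resemble Prdx1 most, Prdx2, Prdx3 and Prdx4, are its fellow typical 2-Cys enzymes, whereas Prdx5 is an atypical 2-Cys enzyme and Prdx6 a 1-Cys enzyme. The codon lay at chr9:108339451-108339453 in exon 1 of Gpx1 and at chr10:80054737-80054739 in exon 3 of Gpx4. That of Prdx6 lay at chr1:161247368-161247370, on the minus strand, in exon 2 of the 5 exons of its main coding transcript.

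Each library was quantified by the authors in a pair of ways: a gene table with a matching first transcript table, and a second transcript table made separately from the same reads. Fragments assigned in the gene tables numbered 51888568 in replicate 1 and 26776336 in replicate 2, while second transcript tables had 76101112 and 46367876. Levels are in TPM, a relative transcript abundance scaled to the same sum in each library, which corrects for length and so allows genes to be set side by side. Summed TPM of neuronal markers was 4131 in replicate 1 and 4038 in replicate 2, with 5 of 5 markers tested, and that of oligodendrocyte markers 3020 and 3235. Astrocyte markers summed to 1493 and 1816 TPM, microglial markers to 359 and 360, endothelial markers to 185 and 232, and choroid plexus markers to 59.7 and 46.5. Erythroid markers summed to 78.3 TPM in replicate 1 and 39.0 in replicate 2, nearly all of it globin, while the red cell genes Alas2 and Slc4a1 lay between 0 and 0.12 TPM. The defining markers of cortex cells were thus present in both libraries.

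**Figure D1:**
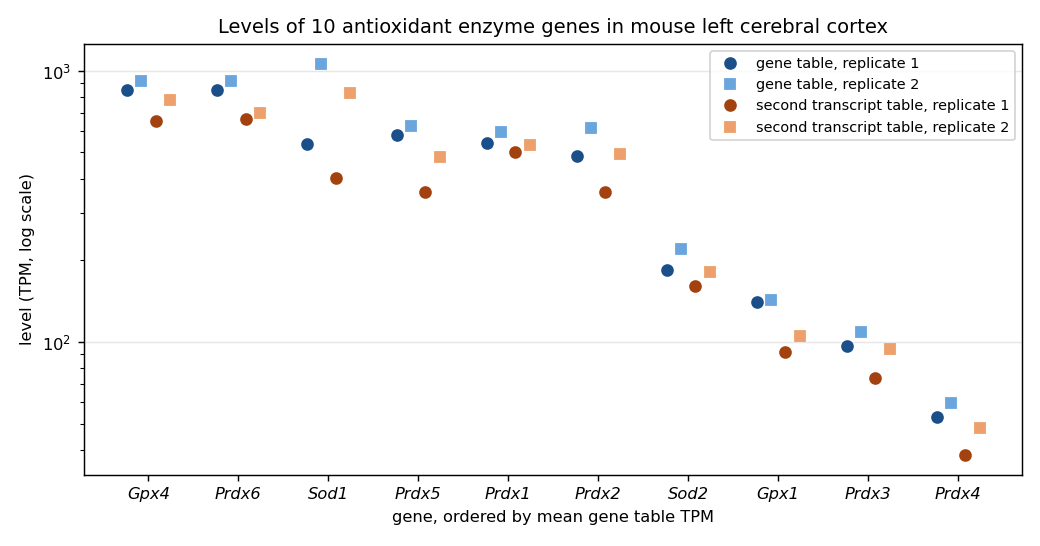
TPM on a log axis for the 10 genes, ordered by mean gene table TPM, with circles for replicate 1 and squares for replicate 2, gene tables in blue and second transcript tables in brown. The 6 genes from Gpx4 to Prdx2 have higher TPM than the other 4 in every library and quantification, which are Sod2, Gpx1, Prdx3 and Prdx4, and Sod1 has the widest gap between the libraries.

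All 10 genes were well expressed in both libraries. Gpx4 (882 ± 44.4 TPM, SD, n = 2) and Prdx6 (881 ± 46.4) had the highest mean levels, followed by Sod1 (799 ± 372), Prdx5 (602 ± 33.1), Prdx1 (567 ± 35.1) and Prdx2 (550 ± 94.0, all n = 2). Sod2 (202 ± 25.8), Gpx1 (141 ± 2.01), Prdx3 (103 ± 8.92) and Prdx4 (56.4 ± 4.86, all n = 2) were lower. In replicate 1 the highest gene was Gpx4, 16.1-fold above the lowest, Prdx4. In replicate 2 it was Sod1, 17.8-fold above Prdx4. Even Prdx4 held rank 2538 in replicate 1 and rank 2253 in replicate 2 among nuclear protein coding genes, of which 12823 and 12707 reached 1 TPM. The ranges of every pair of neighbours from Gpx4 down to Prdx2 overlapped, although Gpx4 and Prdx6 lay above Prdx5, Prdx1 and Prdx2 without overlap in both quantifications. From Prdx2 downwards, each gene lay above the next in both gene tables without overlap. In the second transcript tables Prdx1 lay above both Prdx5 and Prdx2 without overlap, while Gpx1 and Prdx3 overlapped. Because these are bulk tissue samples, fewer cells of a type and less RNA per cell cannot be told apart at any of these levels.

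Together the 10 genes summed to 4312 TPM in replicate 1 and 5255 TPM in replicate 2, a mean of 4783 ± 666 (SD, n = 2). The 6 peroxiredoxins held 60.3% and 55.5% of that sum. The 2 dismutases summed to 720 TPM in replicate 1 and 1282 in replicate 2, and the 2 glutathione peroxidases to 991 and 1056. The dismutase sum was thus the least alike between the libraries, a difference that came from Sod1.

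Between the libraries, 1 of the 10 genes, Sod1, differed by at least 1.5-fold, against 20.1% of the 14640 genes tested. It was 1 of 10 also in the second transcript tables, against 19.3% of genes, and after removal of GC content and length trends, against 18.3%. The ratio is given as log2 of replicate 1 over replicate 2, from CPM, counts scaled by library size, with 0.5 added, at library sizes scaled with TMM. For genes at a mean CPM of 1 or more the median ratio was -0.004 and the median absolute ratio 0.26, while the 10 enzyme genes had a median of -0.11 and a median absolute ratio of 0.11. Of the 10, 4 were higher in replicate 1 and 6 in replicate 2. Over all tested genes, 16.1% were at least 1.5-fold higher in replicate 1 and 3.98% at least 1.5-fold higher in replicate 2.

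**Figure D2:**
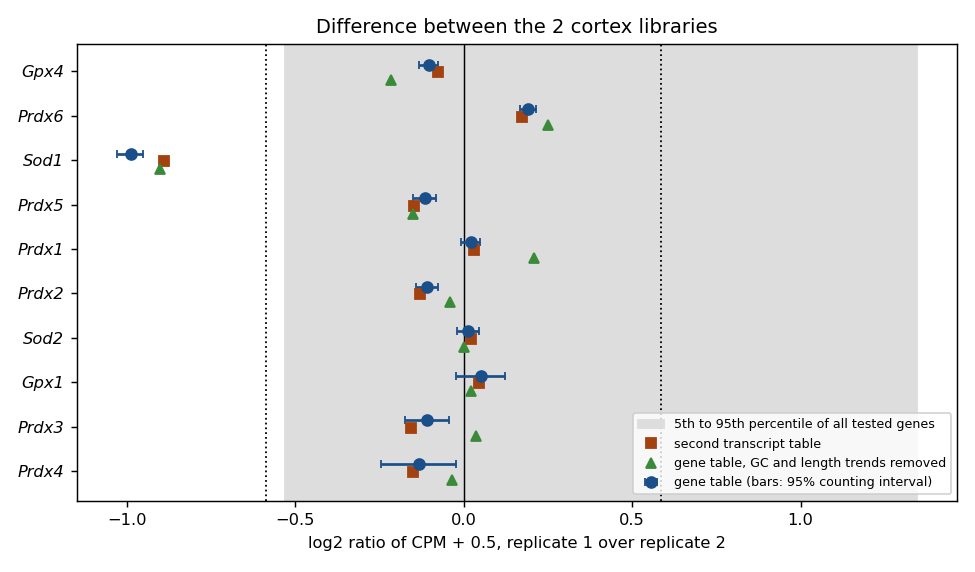
Log2 ratio of CPM + 0.5, replicate 1 over replicate 2, for each gene: gene table with 95% counting interval (circles), second transcript table (squares) and gene table after removal of trends on GC content and length (triangles). The grey band spans the 5th to the 95th percentile of tested genes and dotted lines mark 1.5-fold. Sod1 lies near -0.99, outside the band, and the other 9 genes lie between -0.22 and 0.25 in every version.

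Sod1, the cytosolic copper-zinc dismutase, lies on the plus strand at chr16:90220754-90226329 (ENSMUSG00000022982.10). By the gene tables it had 536 TPM in replicate 1 and 1062 TPM in replicate 2, against 403 and 824 TPM by the second quantification. Replicate 1 was the low library in both quantifications. The fragments numbered 10316 in replicate 1 and 11240 in replicate 2, although replicate 1 was sequenced more deeply. The log2 ratio was -0.99 (95% counting interval -1.03 to -0.95), and 0.724% of tested genes had a lower one. It was -0.89 in the second transcript tables and -0.90 once the trends with GC content and length were taken out. Counting intervals cover counting error only, so they do not include variation between animals or preparations.

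Nearly all Sod1 signal, 99.953% and 99.967% of its TPM in replicates 1 and 2, was assigned to Sod1-201, the complete coding transcript, so the difference was one of the coding mRNA. A processed pseudogene on chromosome 6, Gm8566, shared 34.9% of the 31-base words of Sod1-201 but held only 18.9 and 33.5 fragments. The 3′ part of Sod1 overlaps the span of the antisense gene Scaf4 over 650 bases. Only 2 genes shared 31-base words with Sod1-201 on either strand, both pseudogenes, so annotated Scaf4 transcripts shared none. The sources used here do not tell whether counting used strand. Scaf4 had 1195 fragments in replicate 1 and 246 in replicate 2, a log2 ratio of 1.37, opposite in sign to that of Sod1. Ccs, the chaperone that loads copper onto the Sod1 protein, had 30.1 TPM in replicate 1 and 38.0 in replicate 2, with a log2 ratio of -0.28. Astrocyte markers also had a higher sum in replicate 2, with log2 ratios from -0.25 to 0.18 and 0 of 5 past 1.5-fold. Of the 5 neuron markers, Rbfox3 and Eno2 were past 1.5-fold, 1.81-fold and 1.86-fold higher in replicate 1. Snap25, Syt1 and Tubb3 had log2 ratios of -0.16, 0.065 and 0.14. The part of cell makeup in the Sod1 difference was not tested.

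Sod2, the mitochondrial manganese dismutase, lies on the plus strand at chr17:13006846-13040063 (ENSMUSG00000006818.5). Its level was 184 TPM in replicate 1 and 220.3 TPM in replicate 2, and 161 and 181 TPM in the second transcript tables. On counts the libraries were almost equal, with a log2 ratio of 0.01 (95% counting interval -0.02 to 0.05). Sod1 therefore exceeded Sod2 2.92-fold in replicate 1 and 4.82-fold in replicate 2, and 2.51-fold and 4.54-fold in the second transcript tables. By gene TPM the cytosolic dismutase was the more abundant in each of the 4 values, by an amount that varied with Sod1. Gene TPM of Sod2 includes transcripts not annotated as protein coding, so these ratios are not those of coding mRNA. Protein coding transcripts alone had 536 and 1061 TPM for Sod1 in replicates 1 and 2, and 74.4 and 74.3 TPM for Sod2.

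The Sod2 level per gene hid a mixture of transcripts. The complete coding transcript Sod2-201, of 5861 bases and 222 codons, had 74.4 and 74.3 TPM in replicates 1 and 2, and 52.6 and 60.4 TPM in the second transcript tables. Sod2-204, an annotated retained intron transcript of 644 bases, had 56.5 and 74.7 TPM, and Sod2-207, a processed transcript with no annotated coding sequence, 50.6 and 68.9 TPM. Transcripts without a usable coding sequence (retained intron, processed and nonsense mediated decay) made up 62.9 ± 4.79% of Sod2 TPM (SD, n = 2). By fragments the picture was the reverse, with Sod2-201 holding 83.7% and 78.6%, because a long transcript gathers more fragments per molecule. In the first transcript tables the gap in gene TPM between the libraries lay in Sod2-204 and Sod2-207, while in the second Sod2-201 was also higher in replicate 2. Other genes shared at most 1.63% of the 31-base words of Sod2-201, the most with Riok3.

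**Figure D3:**
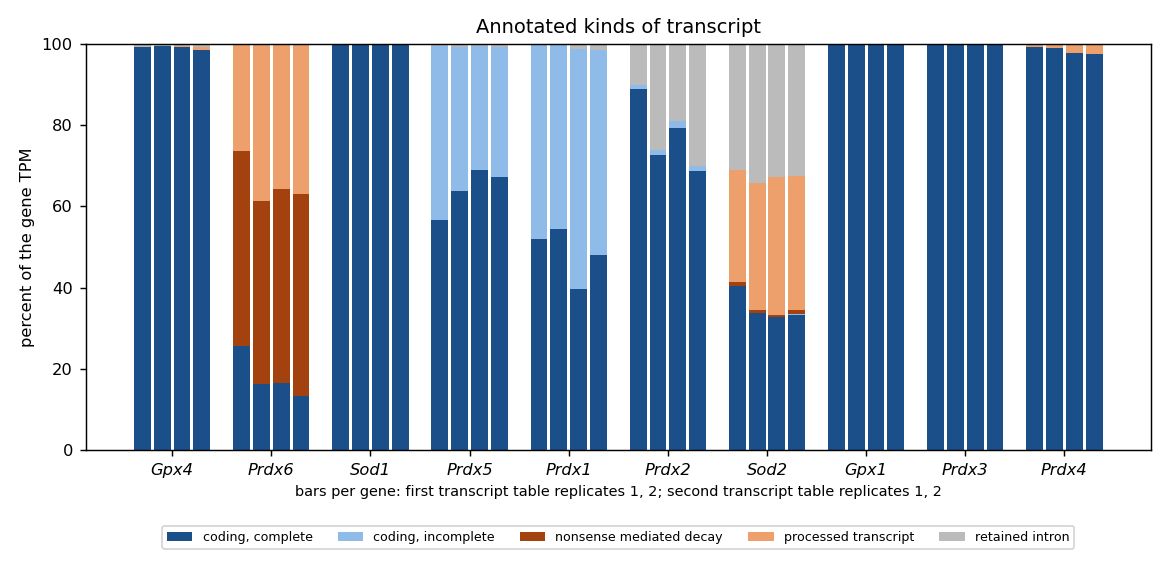
Percent of each gene's TPM in annotated kinds of transcript, with 4 bars per gene: first transcript table replicates 1 and 2, then second transcript table replicates 1 and 2. Complete coding transcripts fill most of each bar for Gpx4, Sod1, Gpx1, Prdx3 and Prdx4, while Prdx6 and Sod2 are mostly noncoding or nonsense mediated decay and Prdx1 and Prdx5 hold much incomplete coding sequence.

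Among 6780 protein coding genes with at least 10 TPM and 2 or more annotated transcripts, the median share of TPM without a usable coding sequence was 3.08% in replicate 1 and 3.06% in replicate 2. Sod2 was exceeded by 6.68% and 5.61% of these genes, and Prdx6, with 74.4% and 83.7%, by 3.16% and 2.12%. Prdx2 was intermediate with 10.003% and 26.1%, and the other 7 genes stood below 2.5% in every library and quantification. Counting only transcripts annotated as protein coding, the order of the 10 genes changed. Gpx4 (876 ± 45.3 TPM) and Sod1 (798 ± 372) then led, and Prdx6 (183 ± 48.1) came sixth, after Prdx5, Prdx1 and Prdx2. Sod2 (74.4 ± 0.085, all SD, n = 2) came ninth, after Gpx1 and Prdx3.

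Gpx4, the lipid peroxide reducing selenoenzyme, lies on the plus strand at chr10:80047166-80056439 (ENSMUSG00000075706.10). It had 851 TPM in replicate 1 and 913 TPM in replicate 2, and 651 and 778 TPM in the second transcript tables. The libraries differed little, with a log2 ratio of -0.10 (95% counting interval -0.13 to -0.07). Gpx4-202, which encodes the 197-codon form whose leader directs it to mitochondria before removal, had 636 and 759 TPM. Which start codon is used cannot be told from transcript TPM, so these values cannot be read as the mitochondrial form alone. Gpx4-201, the 253-codon form with its own first exon that is known from sperm nuclei, had 1.16 and 1.78 TPM. A shorter coding transcript, Gpx4-207 (157 codons), had 207 and 147 TPM in the first transcript tables but 29.0 and 35.7 TPM in the second.

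The level of Gpx4 depended in part on a near copy. Gpx4-ps2, a transcribed processed pseudogene at chr10:45875291-45876086, carries 73.6% of the 31-base words of Gpx4-202. It was given 3313 and 1863 fragments, or 134 and 146 TPM, in the gene tables, but 18.0 and 21.9 fragments in the second transcript tables. Of the joint TPM of gene and copy, the copy held 13.6% and 13.7% in the gene tables, against 0.058% and 0.1% in the second transcript tables. How reads were shared between the 2 loci therefore differed between the quantifications, and the Gpx4 level is uncertain to that extent. Another processed pseudogene, AC122253.3, shared 14.2% of the words and held 2.04 fragments in replicate 1 and 0 in replicate 2.

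Gpx1, the abundant cytosolic and mitochondrial glutathione peroxidase, lies on the plus strand at chr9:108338903-108340343 (ENSMUSG00000063856.7). Its level was 140.05 TPM in replicate 1 and 143 TPM in replicate 2, and 91.5 and 106 TPM in the second transcript tables. It was the most even of the 10 genes in gene table TPM, and its log2 ratio was 0.05 (95% counting interval -0.02 to 0.12). Gpx4 exceeded Gpx1 6.07-fold in replicate 1 and 6.39-fold in replicate 2. Gpx1-201, the full 201-codon form, had 100.5 and 95.8 TPM, and Gpx1-204, a 145-codon form, 36.7 and 47.0 TPM. In the second transcript tables Gpx1-204 had 4.401 and 17.2 TPM. No other gene shared a 31-base word with Gpx1-201.

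Prdx1, Prdx2, Prdx3 and Prdx4 are typical 2-Cys peroxiredoxins, which work as dimers that draw electrons from thioredoxin. Prdx1 and Prdx2 are cytosolic, Prdx3 is mitochondrial, and Prdx4 resides in the endoplasmic reticulum or is secreted. Prdx1 (chr4:116685544-116700822, plus strand, ENSMUSG00000028691.12) had 542 TPM in replicate 1 and 592 TPM in replicate 2, and 503 and 534 TPM in the second transcript tables. Prdx2 (chr8:84969587-84974834, plus strand, ENSMUSG00000005161.15) had 483 and 616 TPM in replicates 1 and 2, and 357 and 494 TPM in the second transcript tables. The 2 cytosolic forms overlapped in level in the gene tables. Prdx3 (chr19:60864051-60874556, minus strand, ENSMUSG00000024997.7) had 96.4 and 109 TPM, and 73.6 and 94.3 TPM in the second transcript tables. Prdx4 (chrX:155323918-155340754, minus strand, ENSMUSG00000025289.15) was the lowest, with 52.9 and 59.8 TPM, and 38.3 and 48.2 TPM in the second transcript tables. The cytosolic genes lay above the mitochondrial one, and that above the endoplasmic reticulum one, in each library.

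The log2 ratios of these 4 genes were close to 0. Prdx1 was at 0.02, with an interval from -0.01 to 0.05, Prdx2 at -0.11, with an interval from -0.14 to -0.08, and Prdx3 at -0.11, with an interval from -0.17 to -0.04. Prdx4 was at -0.13, with the widest interval, -0.24 to -0.02, since it had 1759 and 1058 fragments where Prdx1 had 28869 and 15604. All 4 stayed well inside 1.5-fold.

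Prdx3 has 1 annotated transcript, and Prdx4-201 held 99.4% and 99.0% of Prdx4 TPM. Prdx1 was split between the complete coding transcripts Prdx1-204 and Prdx1-202, which both encode 199 codons, and incomplete ones. Prdx1-204, of 2294 bases, had 278 and 271 TPM in replicates 1 and 2, and 184 and 210 TPM in the second transcript tables. Prdx1-202 had 3.97 and 51.6 TPM, and the libraries were far apart for it in the second transcript tables as well, at 14.6 and 47.3 TPM. Of the incomplete transcripts, Prdx1-201 had 249 and 259 TPM in the first transcript tables and 83.1 and 85.8 TPM in the second, while Prdx1-205 had 9.76 and 9.01 TPM in the first and 214 and 182 TPM in the second. The 2 quantifications thus gave the incomplete part of Prdx1 to different transcripts, at a like total of 259 and 268 TPM in the first and 298 and 269 TPM in the second.

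Prdx2 is known for its abundance in red blood cells as well as in neurons. The globin genes Hba-a1, Hba-a2, Hbb-bs and Hbb-bt had log2 ratios of 0.98, 1.31, 0.38 and 0.66, all higher in replicate 1. Prdx2 had -0.11, and the part of blood in the Prdx2 level was not tested. Prdx2-205, a retained intron transcript of 549 bases, differed most between the libraries and had 45.8 TPM in replicate 1 and 159 TPM in replicate 2, and 66.1 and 147 TPM in the second transcript tables. Complete coding Prdx2 transcripts, each of 198 codons, summed to 430 and 448 TPM in the first transcript tables, and to 283 and 339 TPM in the second. In the first, Prdx2-208 had 224 and 244 TPM, Prdx2-201 had 171 and 164 TPM and Prdx2-203 had 33.4 and 38.0 TPM. In the second transcript tables Prdx2-201 came first, with 166 and 175 TPM, ahead of Prdx2-208 with 84.2 and 126 TPM.

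The last 351 bases of Prdx2 overlap Junb, an immediate early gene on the other strand, which had 17416 fragments in replicate 1 and 3552 in replicate 2, a log2 ratio of 1.42. Junb shared 12.8% of the 31-base words of Prdx2-208. Without known strand use, reads from the overlap cannot be told apart, and the part of Junb reads in the Prdx2 values was not tested. At its other end Prdx2 overlaps Rnaseh2a over 181 bases. The pseudogene copies Tdpx-ps1 and Prdx2-rs3 shared 18.5% and 2.62% of the words and held at most 17.9 fragments in either gene table. Those of Prdx1, among them Gm21399 and Gm7204, shared 13.2% and 11.3% of the words of Prdx1-204 and held at most 25.9 fragments. Gm15974 shared 2.08% and held none.

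Prdx5, the atypical 2-Cys enzyme found in mitochondria, peroxisomes and cytosol, lies on the minus strand at chr19:6906697-6910106 (ENSMUSG00000024953.17). It had 579 TPM in replicate 1 and 626 TPM in replicate 2, and 357 and 479 TPM in the second transcript tables. The log2 ratio was -0.11 (95% counting interval -0.15 to -0.08). Prdx5-201, the 210-codon form that carries the mitochondrial leader, had 278 and 334 TPM, and 244 and 286 TPM in the second transcript tables. An incomplete coding transcript, Prdx5-205, had 248 and 221 TPM, and 109 and 153 TPM in the second transcript tables. Prdx5-204, with 166 codons, had 37.8 and 62.9 TPM, but 0.477 and 36.0 TPM in the second transcript tables. Prdx5 overlaps Trmt112, on the other strand, over 409 bases, and Trmt112 shared 30.8% of the words of Prdx5-201 with 2868 and 1623 fragments.

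Prdx6, the 1-Cys enzyme that also has phospholipase activity and is well known from astrocytes, lies on the minus strand at chr1:161240112-161251219 (ENSMUSG00000026701.15). It had 848 TPM in replicate 1 and 914 TPM in replicate 2, and 666 and 699 TPM in the second transcript tables. On counts it was higher in replicate 1, with 860.1 CPM in replicate 1 and 754 CPM in replicate 2 and a log2 ratio of 0.19 (95% counting interval 0.17 to 0.21). TPM and CPM thus ordered the libraries differently, and 61.8% of tested genes had a larger absolute ratio. The complete coding transcript Prdx6-202, of 2387 bases and 224 codons, had 197 TPM in replicate 1 and 129 TPM in replicate 2, and 90.1 and 73.6 TPM in the second transcript tables. It was higher in replicate 1 in both, while the total gene TPM was higher in replicate 2 in both.

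The leading Prdx6 transcript was Prdx6-208, annotated as a target of nonsense mediated decay, the pathway that degrades mRNAs with an early stop codon. It is 1294 bases long with 76 codons. It had 408 and 411 TPM in replicates 1 and 2, and 319 and 348 TPM in the second transcript tables, which was 48.1% and 45.0% of gene TPM in the first transcript tables and 47.9% and 49.8% in the second. The share ran from 45.0% to 49.8% over libraries and quantifications, while the shares of Prdx6-202, Prdx6-207 and Prdx6-204 differed more. Prdx6-207, a processed transcript, had 192 and 185 TPM, and 231 and 242 TPM in the second transcript tables. Prdx6-204, another processed transcript, had 24.9 TPM in replicate 1 and 161 TPM in replicate 2, but 0 and 8.11 TPM in the second transcript tables.

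**Figure D4:**
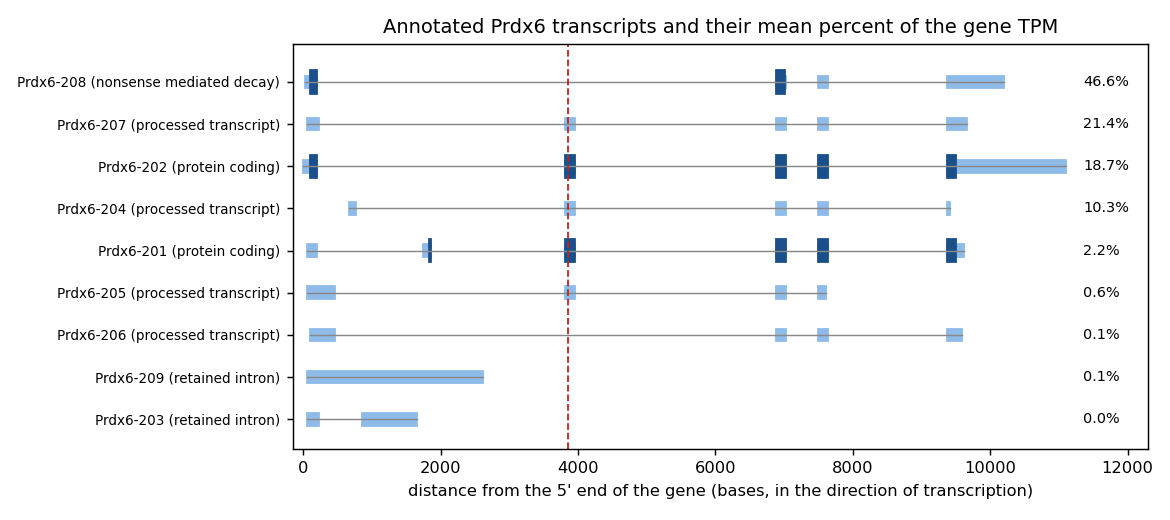
Exons (light) and annotated coding parts (dark) of the Prdx6 transcripts by distance in bases from the 5′ end of the gene, with the mean percent of gene TPM in the first transcript tables at the right. The dashed line marks the peroxidatic cysteine codon, which lies in exon 2 of Prdx6-202 and falls in a gap between exons of Prdx6-208, the transcript with the highest share at 46.6%.

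Prdx6-208 lacks the exon that holds the peroxidatic cysteine codon printed above. That exon, exon 2 of Prdx6-202 at chr1:161247257-161247413, is 157 bases long, which leaves a remainder of 1 base over whole codons, so that the reading frame shifts when it is skipped. Of the 9 annotated Prdx6 transcripts, 5 hold the codon in an exon, and they carried 51.7% and 54.8% of gene TPM in replicates 1 and 2, and 51.9% and 50.1% in the second transcript tables. Among the other peroxidases, transcripts with the codon held 90.5% and 74.1% of Prdx2 TPM, where Prdx2-205 lacks it. For Gpx1, Gpx4, Prdx1, Prdx3, Prdx4 and Prdx5 the share was at least 97.5% in every library and quantification. An exon with the codon need not translate it. In Gpx1-204 the annotated coding sequence starts after the codon, so transcripts with the codon inside their coding sequence held 71.8% and 67.1% of Gpx1 TPM in the first transcript tables and 93.8% and 83.3% in the second. For Prdx6 they were Prdx6-202 and Prdx6-201, with 25.6% and 16.3% in the first and 16.4% and 13.3% in the second. By fragments, complete coding transcripts of Prdx6 held 42.2% and 30.3% in the first transcript tables and 28.2% and 22.8% in the second. The share thus depends on whether molecules or fragments are counted, and on the quantification. All of these shares are the authors' estimates from short fragments. Transcripts that share most exons are told apart only by fragments that touch their differences. Prdx6-208 differs from Prdx6-202 also in its last exon, which ends 10204 bases from the 5′ end of the gene rather than 11107. Fragments can thus be given to Prdx6-208 by its 3′ end as well as by the skipped exon. Which of these set its share was not tested. Prdx6b, a related gene on chromosome 2, shared 3.72% of the words of Prdx6-208 and had 4 fragments in replicate 1 and 0 in replicate 2.

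Between the quantifications, 0 of the 10 genes were past 1.5-fold in both libraries on the same side, against 7.51% of 14966 genes, made up of 2.43% higher in the gene tables and 5.08% higher in the second transcript tables. The ratio was that of gene table TPM over second transcript table TPM, each with 0.1 added. In replicate 1 it ran from 1.08-fold for Prdx1 to 1.62-fold for Prdx5, with Gpx1 also past the threshold at 1.53-fold. In replicate 2 it ran from 1.11-fold for Prdx1 to 1.35-fold for Gpx1. Each of the 10 genes was higher in the gene tables in both libraries, as were most genes, with an all-gene median of 1.29-fold in replicate 1 and 1.20-fold in replicate 2 beside 1.32-fold and 1.24-fold for the enzymes. The transcript with the most TPM differed between the quantifications in both libraries for Prdx2, and for Prdx1 in replicate 1, where Prdx1-205 led in the second transcript table. In replicate 2 Prdx1-204 led in both. For Sod2 the leader changed between libraries too. In the first transcript tables it was Sod2-201 in replicate 1 and Sod2-204, by a small margin, in replicate 2. In the second it was Sod2-207 in replicate 1, with 54.4 TPM beside 52.6 for Sod2-201, and Sod2-201 in replicate 2, with 60.4 TPM beside 60.009 for Sod2-207.

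Promoters from RefSeq (GRCm38.p6), from 250 bases before to 50 after each start, matched 9 of the 10 genes in 12 windows. The antioxidant response motif, searched as TGACNNNGC on both strands with no overlap with another motif considered, was found in 2 of the 12, 1 of Prdx1 and 1 of Sod1. It was found in 12.39% of all 32851 promoters. This is the motif to which NRF2, the main regulator of antioxidant genes, binds with small Maf proteins, and a match is a description of letters only. GC content of the windows had a median of 62.67%, beside 52.67% over all promoters.

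**Figure D5:**
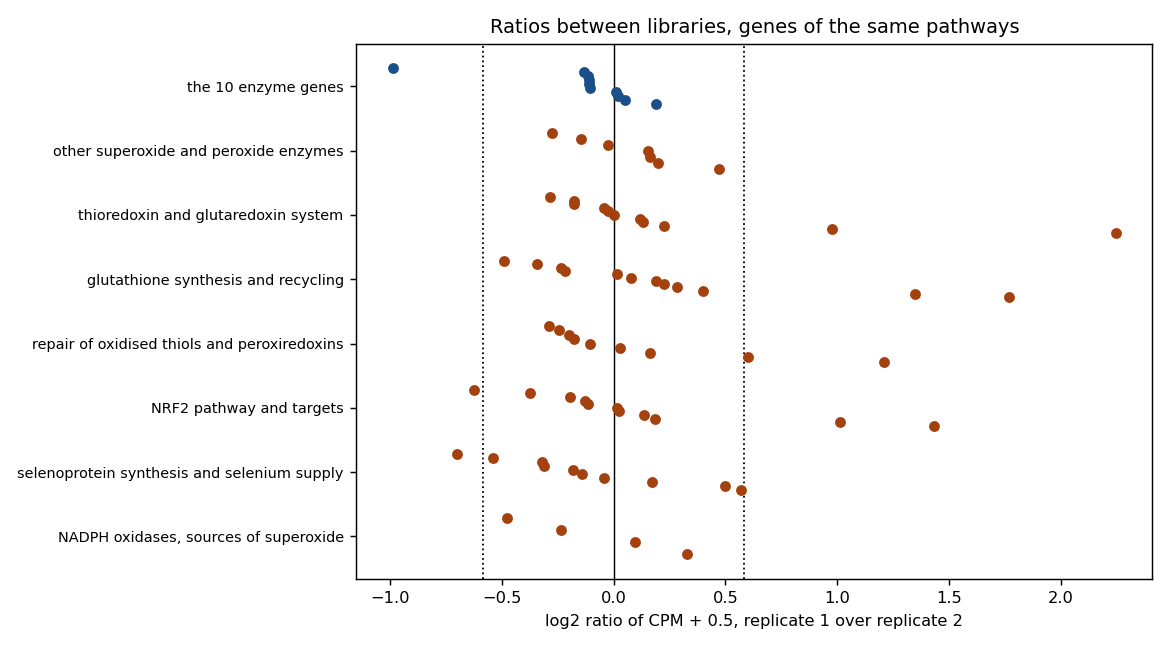
Log2 ratio of CPM + 0.5, replicate 1 over replicate 2, for the 10 enzyme genes (blue) and for the tested genes of 7 lists from the same pathways (brown), sorted within each row. Dotted lines mark 1.5-fold. Sod1 is the lowest point and Glrx5, at 2.25, the highest.

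Genes that feed, repair or regulate the 10 enzymes were taken from 7 lists. Of their 70 genes, 64 were tested and 10 differed by at least 1.5-fold, which is 15.6% of those tested, beside 20.1% of all genes, with a median log2 ratio of 0.01. Of these, 8 were higher in replicate 1 and 2 in replicate 2. In the thioredoxin and glutaredoxin system (11 tested), the cytosolic thioredoxin reductase Txnrd1 had 20.95 TPM in replicate 1 and 10.65 TPM in replicate 2, a log2 ratio of 0.98. Glrx5, a mitochondrial glutaredoxin used in iron-sulphur cluster assembly, had 55.7 and 18.5 TPM, a log2 ratio of 2.25. The highest gene there was mitochondrial thioredoxin Txn2, the electron donor of Prdx3, with 236 and 277 TPM, and the lowest was nucleoredoxin, Nxn, with 1.91 and 1.59 TPM. Txn1, the cytosolic donor of Prdx1 and Prdx2, had 112 and 115 TPM, below both of the enzymes it serves.

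In glutathione synthesis and recycling (12 tested), 2 genes were past 1.5-fold, both higher in replicate 1. Gclm, the modifier subunit of the first enzyme of glutathione synthesis, had 99.7 and 25.8 TPM in replicates 1 and 2, a log2 ratio of 1.77. Gsr, which restores reduced glutathione, had 24.1 and 9.92 TPM, a log2 ratio of 1.35. The glutathione transferase Gstp1, which can reduce oxidised Prdx6, was highest, with 850.03 and 820.3 TPM, about the level of Prdx6, and the cystine transporter Slc7a11 was lowest, with 4.79 and 3.74 TPM. Among genes that repair oxidised thiols (9 tested), sulfiredoxin, Srxn1, which restores overoxidised 2-Cys peroxiredoxins, had 35.7 and 25.7 TPM, a log2 ratio of 0.60. Msrb1, a selenoprotein that reduces oxidised methionine, had 13.7 and 5.58 TPM, a log2 ratio of 1.21. Park7, also called DJ-1, was the highest of that list with 393 and 462 TPM, and Msrb3 the lowest with 2.31 and 2.97 TPM.

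In the NRF2 pathway (11 tested), Hmox1, the inducible heme oxygenase, had 3.26 and 1.46 TPM, a log2 ratio of 1.01, and malic enzyme, Me1, a source of NADPH, had 30.8 and 11.6 TPM, a log2 ratio of 1.43. Transketolase, Tkt, had 80.4 and 144 TPM, a log2 ratio of -0.62. The highest gene was Taldo1, of the same sugar phosphate pathway, with 192 and 213 TPM, and the lowest was the repressor Bach1, with 1.59 and 1.66 TPM. Nfe2l2, which encodes NRF2 itself, had 11.8 and 11.4 TPM, a log2 ratio of 0.14. Prdx1 and Sod1, whose promoters hold the motif, were at 0.02 and -0.99. The list's median was 0.015, with 2 genes past 1.5-fold higher in replicate 1 and 1 higher in replicate 2.

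Selenium is needed for the TGA codons of Gpx1 and Gpx4 to be read. Of 10 genes of selenoprotein synthesis and selenium supply, 1 was past 1.5-fold. Sepsecs, which makes selenocysteine on its transfer RNA, had 2.47 and 4.24 TPM, a log2 ratio of -0.70, and was the lowest of the list. Selenow, a small selenoprotein abundant in brain, was the highest, with 2813 and 1913 TPM, above every one of the 10 enzymes. Selenop, the carrier that delivers selenium to the brain, had 237 and 312 TPM, between Gpx1 and Gpx4.

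The other superoxide and peroxide enzymes listed, and the chaperone Ccs, each had lower TPM than any of the 10 enzymes. Of 10 other superoxide and peroxide enzymes and cofactors, 7 reached 1 TPM in both libraries, and 0 of 7 tested were past 1.5-fold. Ccs, given above, was the highest by mean, followed by catalase, Cat, with 34.4 and 32.8 TPM, less than Prdx4. Extracellular dismutase, Sod3, had 8.47 and 6.47 TPM, and Gpx5, an epididymal peroxidase, was listed at 0 in both libraries. Of the NADPH oxidase genes, which make superoxide, 4 of 7 were tested and 0 were past 1.5-fold. In the gene tables Cyba was highest at 30.1 and 24.0 TPM. Nox4 was lowest there at 0.08 and 0.09 TPM, on 7 and 2 fragments. In the second transcript tables Nox4 had 0.487 and 0.283 TPM, above Nox1 with 0.103 and 0.211 and Cybb with 0.169 and 0.226.

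By level alone, the genes most like Gpx4 over the 4 library and quantification values were Rpl22l1, Pebp1 and Rps26, with a largest absolute log2 TPM difference of 0.06, 0.08 and 0.12. Those most like Prdx4 were Mfsd4a, Fads2 and Hars, at 0.02, 0.03 and 0.04. These likenesses are of level across 2 libraries that share a tissue.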

How the data were processed

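Poly(A)+ RNA-seq of 2 cortex libraries was used. Per the deposited notes, the authors quantified both libraries on mm10 with GENCODE M21. Aligner, quantifier and strand use: not given in the sources used here. The gene and first transcript tables hold expected counts, TPM and, as percent of gene TPM, isoform shares, per the file headers, in the column layout that RSEM writes. The second transcript tables hold the authors' estimated counts and TPM in the layout that kallisto writes, and were summed per gene. Gene tables summed to 51888568 and 26776336 fragments for replicates 1 and 2, second transcript tables to 76101112 and 46367876.

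After rounding to whole numbers, expected counts were scaled with TMM (edgeR 4.0.16, R 4.3.3). Genes at a mean of 1 CPM or more were compared, replicate 1 over replicate 2, with 0.5 added and 95% Clopper-Pearson intervals, which cover counting error only, since no molecular identifiers are given. With 1 library against 1 of the same group there is no test. The quantifications were compared by the ratio of TPM with 0.1 added, at a mean TPM of at least 1. GC content and length trends were taken out with lowess (statsmodels 0.14.6, fraction 0.3). DESeq2 1.42.0 size factors served as an alternative. The ratio step was tested on simulated data. Near copies were found as shared 31-base words of the M21 transcripts. In the coding sequence, the selenocysteine codon was the in-frame TGA, and the cysteine codon was found by the amino acids around it.

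Genes and lists were chosen with earlier results of these data known. Named were the 10 enzymes, their transcripts with at least 5% of gene TPM, the nearest copies, the 3 genes nearest in level to the highest and the lowest enzyme, and of each list the highest, the lowest and every gene past 1.5-fold. Txn1, Nfe2l2, Selenop, Cat, Sod3, Gpx4-201, overlapping genes and marker genes were named beyond that rule, after their values were seen.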

Additional observations from a re-analysis of the deposited data

How the results depend on the processing

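The count of enzymes past 1.5-fold between the libraries was 1, Sod1, under all 7 alternatives: total-count scaling, DESeq2 size factors, a pseudocount of 0 or 2, no filter on low counts, the second transcript tables, and removal of trends on GC content and length. Over all genes the count was 2936 and ran from 2299 with a pseudocount of 2 to 3532 with no filter; the GC and length setting for this count (2683) was chosen after seeing the data. The summed TPM of the 10 enzymes was 4783, with 3769 in the second transcript tables and 5761 when TPM was rescaled over nuclear protein coding genes. Without 1 or the other replicate it was 4312 to 5255. Between quantifications, leaving out a replicate gave 0 to 2 enzymes past 1.5-fold: 2, Prdx5 and Gpx1, on replicate 1 alone. The level moved by more than the spread between libraries for 9 of 10 enzymes with the second transcript tables, and for 9 with the rescaling. The main transcript's share moved that far for 7 of 10 with the second transcript tables. No paired analysis was possible because the labels give 1 group only. Transcript shares rest on how reads were divided among transcripts and copies, and 2 libraries limit every spread.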
